A study of Rattus norvegicus with 44 samples.

Results

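The Id genes and the SMAD feedback targets form a group of 9 genes: Id1, Id2, Id3, Id4, Atoh8, Smad6, Smad7, Smad9 and Bambi. They were chosen by name, as probe sets whose only gene symbol in the array annotation is one of the 9, and each gene had 1 such probe set among 27342 probe sets in all, of which 15097 carried 1 symbol. Their transcript levels were measured in whole ovaries of female Sprague-Dawley rats, taken on postnatal day 4 and cultured for 2 days (48 h) with a single growth factor at 50 ng/ml. The first set of 38 arrays held BMP4, AMH, LIF, FGF2, FGF7, GDNF, KITLG and PDGFab (3 samples each) and 14 samples without growth factor, and the second set of 6 arrays held CTGF (3 samples) and 3 controls of its own. Each sample was a pool of 2 to 3 ovaries that shared a culture well and came from different pups of a litter, so the 2 to 3 ovaries are not replicates. Ovaries of this age hold almost only primordial follicles, the resting pool of oocytes each wrapped in flat pregranulosa cells. All groups shared the rat strain, the age, the medium and the length of culture, and no genetic change was made.

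BMP4 is a secreted protein that binds a pair of receptor kinases on the cell surface, which then phosphorylate SMAD1, SMAD5 and SMAD9 inside the cell. Together with SMAD4 these proteins enter the nucleus and switch on a small set of direct target genes in many cell types, and the Id genes are the best known of them. ID proteins are short helix-loop-helix proteins without a DNA-binding part, and they hold E proteins and their partners away from DNA. AMH, a hormone of granulosa cells that restrains the recruitment of primordial follicles, signals through its own type II receptor and uses the same SMAD proteins as BMP4. LIF acts by another route, through a cytokine receptor and STAT3. The feedback targets switch the pathway down: SMAD6 and SMAD7 block the receptors and the SMAD proteins, and BAMBI is a membrane protein built like a receptor without the kinase. Smad9 encodes a signal carrier of the pathway that is itself induced by BMP in many cells, and Atoh8 encodes a helix-loop-helix transcription factor known as a BMP target in endothelial cells and liver.

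The stretch just before the transcription start is shown for 4 of the genes, because Id1, Id3 and Atoh8 met the study criteria with BMP4 (below) and Smad9 holds both of the SMAD-type motifs searched. The sequences are from RefSeq (rat build GRCr8), each covers the 250 bases before the start, and 8 of the 9 genes matched an entry; Smad6 had none and is only named. Capitals mark GGCGCC, the GC-rich motif bound by BMP-type SMAD proteins, and CAGAC, the short SMAD-binding motif, on either strand (capitals that read GTCTG are CAGAC on the opposite one).
Id1, chr3:161671314-161671563, + strand: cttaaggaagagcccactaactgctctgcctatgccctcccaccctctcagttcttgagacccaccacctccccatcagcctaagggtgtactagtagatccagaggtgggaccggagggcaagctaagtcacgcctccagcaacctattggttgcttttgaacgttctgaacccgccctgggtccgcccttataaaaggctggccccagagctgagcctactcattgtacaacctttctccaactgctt
Id3, chr5:153656041-153656290, + strand: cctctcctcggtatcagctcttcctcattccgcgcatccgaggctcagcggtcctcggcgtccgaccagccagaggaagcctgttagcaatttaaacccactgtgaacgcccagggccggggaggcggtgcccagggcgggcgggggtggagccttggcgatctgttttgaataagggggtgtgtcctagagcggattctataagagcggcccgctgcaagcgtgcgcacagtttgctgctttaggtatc
Atoh8, chr4:105850380-105850629, - strand: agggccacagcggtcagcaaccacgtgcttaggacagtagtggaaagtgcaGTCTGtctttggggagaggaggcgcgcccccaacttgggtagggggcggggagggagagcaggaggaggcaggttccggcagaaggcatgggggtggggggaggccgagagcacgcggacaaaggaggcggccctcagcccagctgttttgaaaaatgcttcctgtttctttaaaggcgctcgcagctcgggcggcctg
Smad9, chr2:141106418-141106667, + strand: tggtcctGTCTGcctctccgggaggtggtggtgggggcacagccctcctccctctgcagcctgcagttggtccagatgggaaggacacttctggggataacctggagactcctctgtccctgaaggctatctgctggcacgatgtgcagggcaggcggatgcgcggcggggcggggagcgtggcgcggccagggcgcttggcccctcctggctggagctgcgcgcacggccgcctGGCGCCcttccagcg
GGCGCC was found in Smad7 (2 matches), Smad9 (1 match) and Bambi (1 match), and it occurs in 8.69% of 33469 rat promoters of the same length. CAGAC was found in Atoh8 and Smad9, and it occurs in 42.9% of those promoters. Both strands were searched for both motifs, which do not overlap each other. The windows of Id1, Id2, Id3 and Id4 hold neither string of letters. A match is a description of these letters only, and the enhancers of BMP target genes often lie outside such a window.

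All levels below are log2 expression levels as deposited, so that a difference of 1 stands for a 2-fold difference, and levels of different genes are not set against each other. Array medians lay between 5.93 and 6.01 in the set of 38 arrays, and any pair of those arrays correlated with r of at least 0.964. Markers of oocytes (7 of 11 listed genes measured) and of pregranulosa cells (6 of 7 measured) all lay above the median probe set. The first samples of LIF, FGF2 and KITLG and control 1 stood apart in cell markers, with oocyte means of 8.30 in LIF sample 1, 7.42 in FGF2 sample 1, 8.15 in KITLG sample 1 and 7.80 in control 1. Their macrophage means were 8.16 in LIF sample 1, 8.15 in FGF2 sample 1, 8.20 in KITLG sample 1 and 7.94 in control 1, and no other array of the set was lower for oocytes or higher for macrophages than these 4. In whole ovaries, fewer cells of a type and less RNA per cell cannot be told apart, and this holds for every difference below. Treatment differences were tested in limma with p-values adjusted over all 27342 probe sets, and a probe set was called at an adjusted p under 0.05. A second and looser rule, called the study criteria here, asked for a limma p no higher than 0.05 before adjustment, a mean linear level 1.2 times that of the controls or more (0.83 times or less for lower levels), and a gap of 10 or more between the linear means.

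With BMP4, 3 of the 9 genes (Id1, Id3 and Atoh8) met the study criteria, all 3 higher, and no gene of the group was called at the adjusted p. Over all probe sets 2.11% met the criteria as higher with BMP4 and 4.48% in either direction, and 0.274% were called. The median log2 difference over the 9 genes was 0.50, against 0.0022 over all probe sets, and 7 of the 9 were higher. Members of the group ranged from -0.19 (Bambi) to 0.67 (Smad6).

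Id1 had log2 levels of 9.61, 9.66 and 9.61 in BMP4 ovaries, against a lowest of 8.24, a median of 9.16 and a highest of 9.37 in the 14 control ovaries. All 3 BMP4 samples stood above every control, and they lay close to each other. The mean difference was 0.61 ± 0.17 (SE, limma, n = 3 and 14, adjusted p = 0.155), with an exact two-sided permutation p of 0.0118. The same was seen for Id3, with 9.88, 9.96 and 10.03 in BMP4 ovaries, against a lowest of 8.60, a median of 9.28 and a highest of 9.84 in controls. Its BMP4 samples also did not overlap the controls, and its mean difference was 0.59 ± 0.19 (SE, limma, adjusted p = 0.242; exact two-sided permutation p = 0.00588). Of all probe sets, 0.333% had every BMP4 sample above every control. The smallest p that 3 against 14 samples can give in this exact test is 0.00147.

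Id2 and Id4 did not follow Id1 and Id3. Id2 had 9.68, 10.001 and 9.85 in BMP4 ovaries, against 9.58 to 10.11 with a median of 9.82 in controls, and every BMP4 sample lay within the range of the controls. Its mean difference was 0.051 with a 95% interval of -0.19 to 0.29. Id4 had 6.93, 6.57 and 6.56 in BMP4 ovaries, against 6.47 to 7.28 with a median of 6.70 in controls, again within the control range. Its mean difference was -0.074 (95% interval -0.41 to 0.26), so that differences up to the bounds of these intervals remain possible for both genes.

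Atoh8 had 7.21, 6.77 and 6.75 in BMP4 ovaries, against a lowest of 6.09, a median of 6.39 and a highest of 6.78 in controls. One BMP4 sample stood clearly above the controls and the other two lay at their upper edge. The mean difference was 0.51 ± 0.14 (SE, limma, adjusted p = 0.119; exact two-sided permutation p = 0.00441), and it was 0.36 without the first BMP4 sample. Smad6, the inhibitor of BMP-type SMAD signalling, had 9.08, 8.87 and 9.20 in BMP4 ovaries, against a lowest of 6.79, a median of 8.50 and a highest of 9.26 in controls. The BMP4 samples lay in the upper part of a wide control range, and the mean difference of 0.67 (95% interval -0.0042 to 1.34, adjusted p = 0.561 in limma) did not meet the criteria. Smad7 was placed likewise, with 7.42, 7.04 and 7.38 in BMP4 ovaries, against 6.07 to 7.57 with a median of 6.74 in controls, and differed by 0.50 (95% interval -0.021 to 1.02, adjusted p = 0.586 in limma).

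Smad9 had 7.45, 7.29 and 7.85 in BMP4 ovaries, against 5.84 to 7.77 with a median of 7.19 in controls. One BMP4 sample exceeded all controls, and the mean difference was 0.43 (95% interval -0.16 to 1.02). Bambi, the decoy receptor, had 8.93, 9.58 and 9.61 in BMP4 ovaries, against 8.72 to 9.92 with a median of 9.75 in controls, so that the groups overlapped over the whole BMP4 range. Its mean difference of -0.19 (95% interval -0.67 to 0.29) turned to 0.034 without the first BMP4 sample and to 0.16 with the replicate block. The count of genes at the study criteria with BMP4 was 5 when control 8, control 10 or control 11 was left out, and 3 without control 1. No share over all probe sets is given for those fits, so the counts have no background beside them. Several cell type markers also differed with BMP4. All 5 measured markers of the surface epithelium had lower means (median -0.24, with Krt8 at -0.68 meeting the criteria). Of 8 stromal genes 5 had higher means (median 0.12), and 2 met the criteria as higher (Col1a2 at 0.34 and Nr2f2 at 0.29). Endothelial markers had higher means in 7 of 9 genes (median 0.18), the largest median rise of the marker lists. Macrophage markers were higher in 7 of 8 (median 0.13) and pregranulosa markers in 5 of 6 (median 0.12). Smooth muscle and pericyte markers were higher in 3 of 7 (median -0.13). No gene of these further lists met the criteria. The oocyte list was mixed, with higher means in 4 of 7 genes (median 0.097), while its gene Dppa3 met the criteria as lower (-0.44). The part of these in the differences of Id1, Id3 and Atoh8 was not tested.

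**Figure D1:**
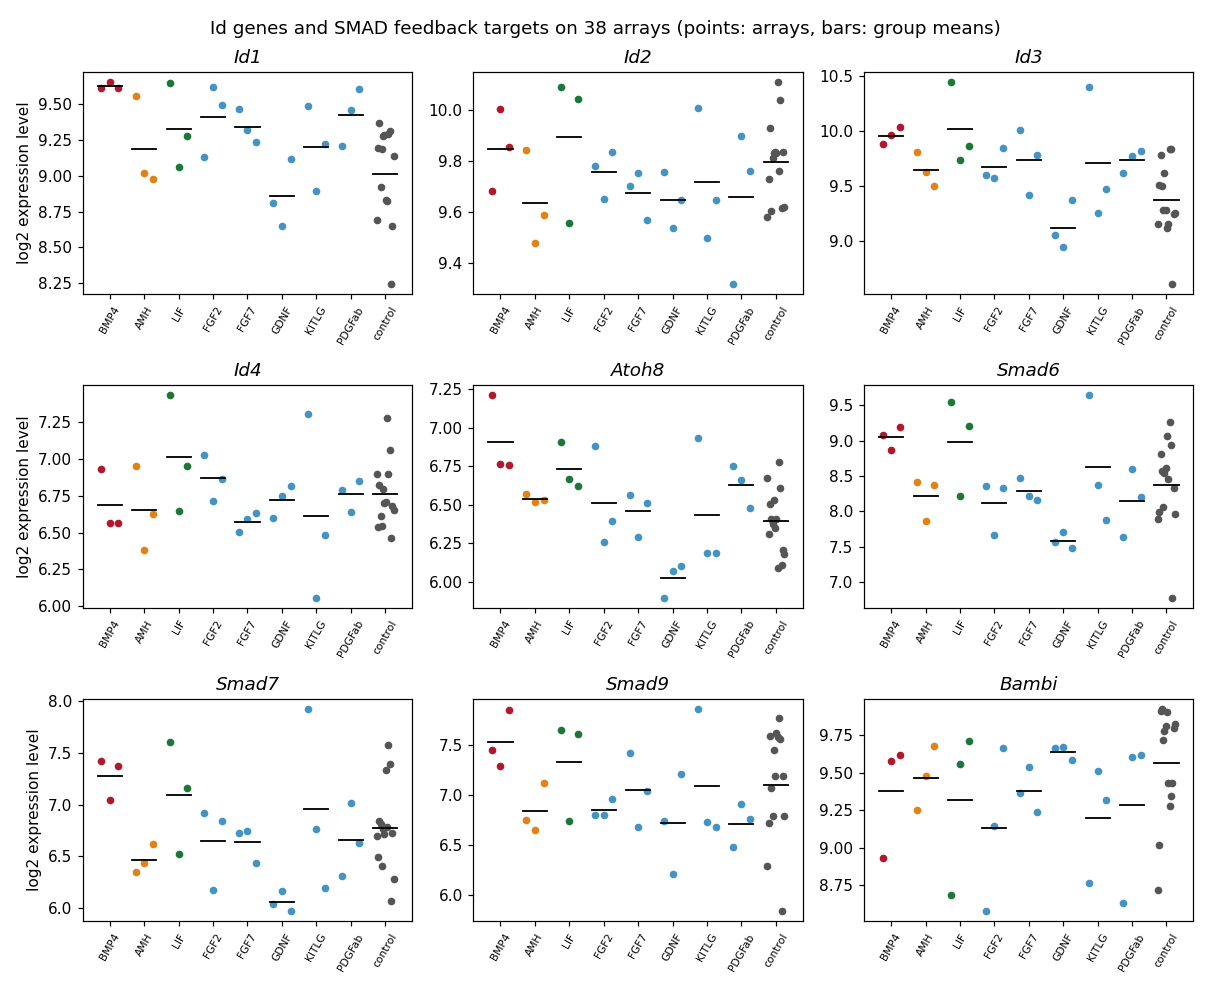
Log2 expression level (y axis) of the 9 genes in the set of 38 arrays, by group (x axis); points are single samples and black bars are group means. For Id1 and Id3 all 3 BMP4 points lie above the highest of the 14 controls (9.37 and 9.84), whereas the BMP4 points of Id2 and Id4 lie within the control range.

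AMH shares SMAD proteins with BMP4, so its ovaries were compared in the same way. None of the 9 genes met the study criteria with AMH (1.42% of all probe sets were higher and 0.731% lower), also with the p of the Methods' t-test, and none was called. No probe set of the 27342 was called in limma, where 1388 had an unadjusted p under 0.05, and 0 of the 9 genes were among these. The median difference over the 9 genes was -0.11, against -0.0057 over all probe sets, with 3 genes higher and 6 lower, and it turned to 0.020 without the second AMH sample. Changes ran between -0.31 (Smad7) and 0.27 (Id3). Cell type markers differed with AMH as well. Higher means were seen in 8 of 9 endothelial (median 0.32), 8 of 8 stromal (0.17), 8 of 8 macrophage (0.18) and 5 of 7 oocyte markers (0.26). Col1a2 (0.35) and Pdgfra (0.28) met the criteria as higher. Surface epithelium markers were higher in 2 of 5 (median -0.21), and Krt19 (-0.43) and Lhx9 (-0.56) met the criteria as lower. Their part in the AMH results, or in BMP4 against AMH below, was not tested.

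Id1 had 9.56, 9.02 and 8.98 in AMH ovaries, where only the first sample passed the highest control of 9.37. Its difference from controls was 0.17 (95% interval -0.18 to 0.53) and turned to -0.017 without that sample. Id3 had 9.80, 9.62 and 9.50 in AMH ovaries, all above the mean of the controls and all below their highest. Atoh8 had 6.57, 6.52 and 6.53, which was a narrow range within that of the controls, and it differed by 0.14 (95% interval -0.14 to 0.42).

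The 3 SMAD genes had lower means with AMH. Smad7 had 6.35, 6.44 and 6.62 in AMH ovaries, against a median of 6.74 in controls, and differed by -0.31 (95% interval -0.83 to 0.21). Smad6 had 8.42, 7.87 and 8.38, and Smad9 had 6.75, 6.65 and 7.12. All of these samples lay within the control ranges, and the mean differences were -0.16 for Smad6 and -0.26 for Smad9, of which that of Smad6 turned to 0.020 without the second AMH sample. Id2, Id4 and Bambi differed by -0.16, -0.11 and -0.096, and the difference of Id4 turned to 0.028 without the second AMH sample and that of Bambi to 0.014 without the first and to 0.25 with the replicate block.

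BMP4 was then set against AMH directly at the same dose and time, as 1 of 3 pairs of growth factors tested. Atoh8 and Smad7 met the study criteria as higher with BMP4 (0.527% of all probe sets did), 0 of the 9 genes were called, and 0% of all probe sets were. In this direct comparison 842 probe sets had an unadjusted p under 0.05. The median difference over the 9 genes was 0.37, against 0.0064 over all probe sets, and 8 of the 9 were higher with BMP4. Smad7 differed by 0.81 (95% interval 0.14 to 1.48), and its 3 BMP4 samples (lowest 7.04) all lay above the 3 AMH samples (highest 6.62). Atoh8 differed by 0.37 (95% interval 0.0096 to 0.73), with BMP4 samples from 6.75 up and AMH samples at 6.57 or below. The BMP4 samples of Id1, Id3, Smad6 and Smad9 also lay above every AMH sample of the same gene. The share of all probe sets without overlap was not computed for this pair, so these separations have no background beside them. Smad6 differed by 0.83 (95% interval -0.039 to 1.69), Smad9 by 0.69 (95% interval -0.068 to 1.45) and Id1 by 0.44 (95% interval -0.014 to 0.90). The adjusted p was 1 for each gene in limma, and the intervals hold both small and large differences, so that the 2 factors are shown neither to differ nor to act alike on these genes. With the sample number as a replicate block 5 genes met the criteria, and in a fit on the arrays of this pair alone 6 did. The share of all probe sets at the criteria in those fits is not given here, so these counts have no background beside them. Leaving out the first BMP4 sample took the count at the criteria to 0, and leaving out the third BMP4 sample or any 1 AMH sample took it to 1.

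**Figure D2:**
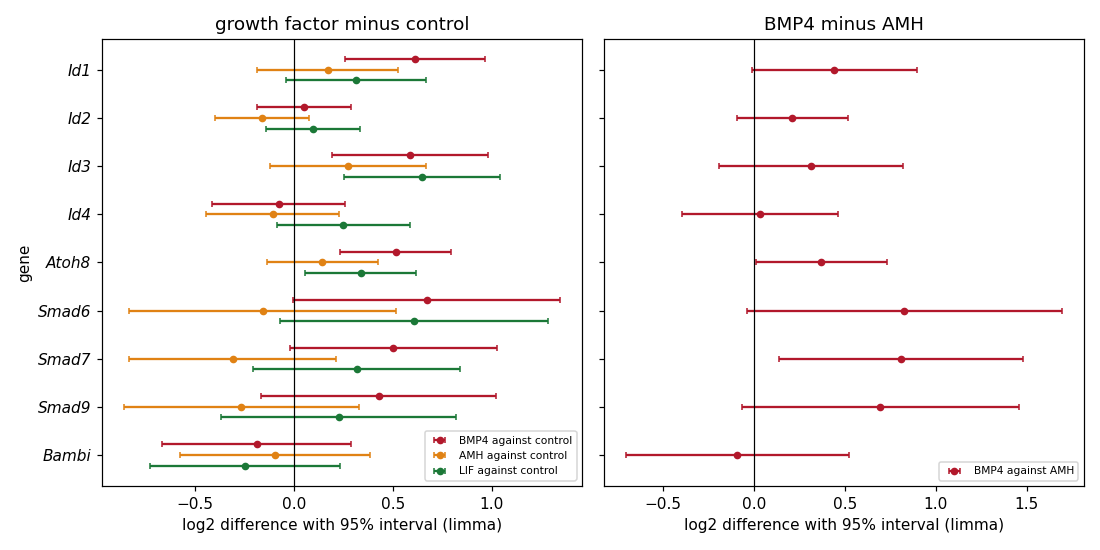
Log2 difference (x axis) with its 95% interval from limma for each of the 9 genes (y axis): BMP4, AMH and LIF each minus the 14 controls on the left, BMP4 minus AMH on the right. The intervals of Id1, Id3 and Atoh8 with BMP4 lie above 0, those of all 9 genes with AMH include 0, and in the direct comparison only Smad7 (0.14 to 1.48) and Atoh8 (0.0096 to 0.73) lie above 0.

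Id3 and Atoh8 were higher with LIF at the study criteria (2.85% of all probe sets met them as higher), and no gene of the group was called, against 0.267% of all probe sets. Id3 had 10.45, 9.74 and 9.86 in LIF ovaries, where 2 of 3 samples exceeded the highest control of 9.84. The difference of 0.65 ± 0.19 (SE, limma, adjusted p = 0.222; exact two-sided permutation p = 0.0103) was close in size to that with BMP4, and the direct difference of LIF from BMP4 was 0.058 (95% interval -0.45 to 0.56). Atoh8 had 6.91, 6.67 and 6.62 in LIF ovaries, of which the first exceeded the highest control, and differed by 0.34 ± 0.14 (SE, limma, adjusted p = 0.529; exact two-sided permutation p = 0.0191).

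Id1 had 9.65, 9.06 and 9.28 in LIF ovaries, and differed by 0.32 (95% interval -0.039 to 0.67), so that it was not separated from the controls. Smad6 had 9.54, 8.21 and 9.20 in LIF ovaries, with the first above every control and the second below the control median of 8.50. It differed by 0.61 (95% interval -0.067 to 1.28). Smad7 had 7.60, 6.52 and 7.16, and Smad9 had 7.65, 6.74 and 7.61. In each of these SMAD genes the second LIF sample was the lowest of the 3. Without the second LIF sample 6 of the 9 genes met the criteria, without the first none did, and without controls 12, 13 and 14 only 1 did. These counts have no background beside them, since the share of all probe sets at the criteria in those fits is not given. The first LIF sample, highest of the 3 for Id1, Id3 and Atoh8, was the one that stood apart in cell markers, with an oocyte mean of 8.30 against 9.15 and 9.31 in the other LIF samples and a macrophage mean of 8.16 against 7.58 and 7.15. Macrophage markers had higher means with LIF in 8 of 8 genes (median 0.28, with C1qb at 0.43 meeting the criteria). Their part in the LIF result was not tested.

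No gene of the group met the criteria when LIF was set against AMH directly (2.1% of all probe sets did), and none did for LIF against BMP4 (2.72%). No gene was called in either, against 0.0731% and 0.0658% of all probe sets. Without the second LIF sample 4 genes met the criteria for LIF against AMH and 1 for LIF against BMP4, and without the first AMH sample 2 did for LIF against AMH. Here too no share of all probe sets is given beside the counts. Of 7 measured LIF-STAT3 target genes, 3 were called and rose with LIF, where 0.267% of all probe sets were called. That list was chosen with earlier results of these data known. The median difference over the 7 was 0.53 with LIF, against -0.025 over all probe sets. Socs3, which encodes the feedback inhibitor of that route, rose by 1.93 (adjusted p = 2.01e-08 in limma), Osmr by 1.46 (adjusted p = 0.0218) and Stat3 by 0.53 (adjusted p = 0.0462). BMP4 and AMH moved none of these 7 past either rule.

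GDNF was the only factor with which members of the group were lower at the criteria in the comparisons made here. It acts through the receptor tyrosine kinase RET and a co-receptor. Atoh8, Smad6 and Smad7 met the criteria as lower, as did 4.03% of all probe sets, and none was called, against 1.89% of all probe sets. Of the 9 genes, 8 had a lower mean, and the median difference was -0.25, against 0.036 over all probe sets (-0.13 without the second GDNF sample). The labels give 3 GDNF samples and all 3 were used, but the study's text counts fewer replicates for GDNF and does not name them.

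Smad7 had 6.04, 6.16 and 5.97 in GDNF ovaries, against a lowest of 6.07 and a median of 6.74 in controls, so that 2 of 3 samples lay below every control. It differed by -0.72 ± 0.26 (SE, limma, adjusted p = 0.138; exact two-sided permutation p = 0.0118). Smad6 had 7.56, 7.71 and 7.49, which lay below 13 of the 14 controls but above control 12 at 6.79. It differed by -0.79 ± 0.33 (SE, limma, adjusted p = 0.212; exact two-sided permutation p = 0.0515). Atoh8 had 5.90, 6.07 and 6.10, against a lowest of 6.09 in controls, and differed by -0.37 ± 0.14 (SE, limma, adjusted p = 0.152; exact two-sided permutation p = 0.00882).

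These GDNF results depended on which controls were used. Control 12 was the lowest of the 14 controls for Id1, Id3, Id4, Smad6, Smad7 and Smad9. Without it Smad6 (-0.91, adjusted p = 0.0408 in limma) and Smad7 (-0.77, adjusted p = 0.0491) were called, and without controls 12, 13 and 14 these 2 (-0.98 and -0.83) and Atoh8 (-0.43) were called. In the same step the calls over all probe sets went up to 2314 without control 12 and to 3151 without controls 12, 13 and 14, against 517 with all controls. With a replicate block only Atoh8 was called (-0.47, adjusted p = 0.0462 in limma). Calls over all probe sets also rose above 517 in that fit (number in the last section), so the call is not read as particular to Atoh8. In limma with 1 GDNF sample left out, 1 gene met the criteria without GDNF sample 1, 3 genes without sample 2 and 2 genes without sample 3. No gene was called in any of these 3 fits, and their share of all probe sets at the criteria is not given.

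The other 4 factors of this set act through receptor tyrosine kinases, and with them at most 1 gene of the 9 met the criteria. With FGF2, Id1 alone met the criteria as higher (0.40, adjusted p = 0.327 in limma), as did 4.43% of all probe sets. It had 9.13, 9.62 and 9.50 in FGF2 ovaries, of which 2 exceeded the highest control. With PDGFab, Id1 alone again met them (0.41, adjusted p = 0.404 in limma), with 9.21, 9.46 and 9.61 in PDGFab ovaries, as did 3.64% of all probe sets. FGF7 (4.16% of all probe sets in either direction) and KITLG (4.44%) had 0 of the 9 genes at the criteria. No gene was called with any of the 4, against 0.94% of all probe sets with FGF2, 0.234% with PDGFab, 0.0805% with FGF7 and 0.0439% with KITLG. Id3 differed by 0.30 with FGF2, 0.37 with FGF7, 0.34 with KITLG and 0.37 with PDGFab, and Bambi by -0.43, -0.18, -0.37 and -0.28 with the same 4 factors, without meeting the criteria. All of these comparisons share the 14 controls, so they are not independent of each other. KITLG samples were far apart for several genes: Id3 had 10.40, 9.25 and 9.47, Smad6 had 9.64, 8.37 and 7.88, and Smad7 had 7.92, 6.77 and 6.20. In all 3 genes the first KITLG sample lay above every control and at least 1 of the others below the control median. That first sample is the KITLG array that stood apart in cell markers. With the replicate block and by the Methods' t-test Id1 no longer met the criteria with FGF2 or with PDGFab, and with FGF2 it did not in the fit on those arrays alone or without controls 12, 13 and 14 either. The FGF2 count was 0 without the second FGF2 sample and 2 without control 1 or 2, and the PDGFab count was 0 without PDGFab sample 2 or 3 and 2 without control 3, 10 or 11. The FGF7 count was 2 without control 3 and 1 without control 10, control 11 or the second FGF7 sample, and the KITLG count was 1 without the first or second KITLG sample. Counts from these alternative fits have no share of all probe sets beside them.

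**Figure D3:**
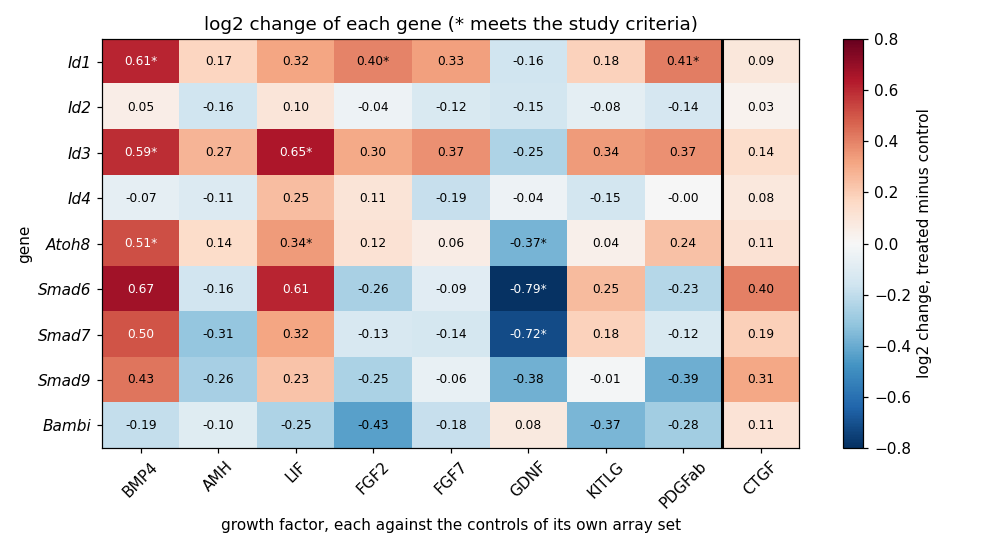
Log2 difference of each of the 9 genes (rows) with each growth factor from the controls of its own array set (columns; CTGF, right of the line, has its own 3 controls); red is higher and blue lower with the factor, and a star marks the study criteria. The 8 factors left of the line share the same 14 controls. Stars stand at Id1, Id3 and Atoh8 with BMP4, Id3 and Atoh8 with LIF, Id1 with FGF2 and PDGFab, and Atoh8, Smad6 and Smad7 with GDNF.

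CTGF, a matricellular protein that the study added in a second experiment, was compared with its own controls only. No gene of the group met the criteria, against 0.761% of all probe sets, and 0% of all probe sets were called in limma, where 854 had an unadjusted p under 0.05. All 9 genes had a higher mean with CTGF, and the median difference was 0.11, against 0.0034 over all probe sets (0.040 without the control numbered 3, and 0.20 without the control numbered 2). Smad6 had 8.72, 8.97 and 8.48 in CTGF ovaries, against 8.39, 8.92 and 7.65 in controls, which overlapped. Smad9 had 8.37, 7.84 and 7.42, against 8.12, 7.60 and 6.99. The spread between samples of a group was wide in both, but samples of the same number resembled each other.

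Within the same-numbered pairs, 7 of the 9 genes were higher with CTGF in all 3 pairs, and Id2 and Bambi were higher in 2 of 3. How many of all probe sets were higher in all 3 pairs was not computed, so this count has no background beside it. Smad9 differed by 0.25, 0.24 and 0.43 in the 3 pairs, and Smad6 by 0.33, 0.050 and 0.83. With the pair number as a block Smad6 (0.40, adjusted p = 0.421) and Smad9 (0.31, adjusted p = 0.384) met the study criteria, no gene was called, and without the second control 1 gene met them in the fit without the block. In this block 2802 probe sets had an unadjusted p under 0.05, and 0 were called. For these fits the share of all probe sets at the criteria is not given, so the counts at the criteria have no background either.

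**Figure D4:**
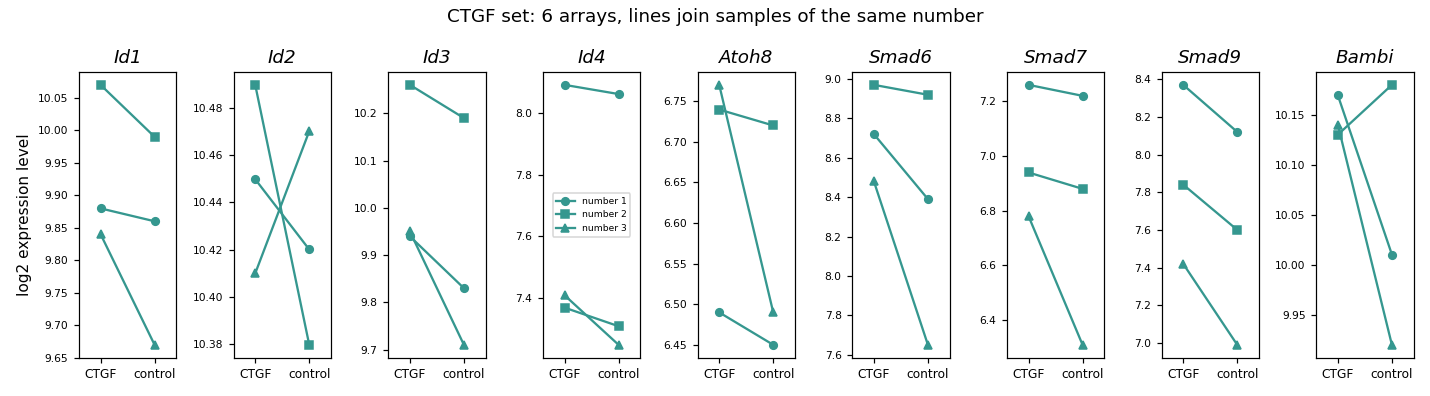
Log2 expression level (y axis) of the 9 genes in the 3 CTGF ovary samples and their 3 controls (x axis, CTGF on the left); lines join samples that carry the same number. Lines fall to the right in all 3 pairs for 7 genes, and cross or rise in 1 pair for Id2 and Bambi.

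Some pairs of members varied together. Over the 14 controls, with 36 pairs of genes tested, the pairs Smad6 with Smad9, Smad6 with Smad7, Id1 with Id3, and Smad7 with Smad9 passed both tests after Benjamini-Hochberg adjustment. Smad6 and Smad9 had Pearson's r of 0.942 (permutation p = 1e-05, adjusted p = 0.00018) and Spearman's rho of 0.899 (permutation p = 5e-05, adjusted p = 0.00072). Smad6 and Smad7 had r of 0.892 (permutation p = 1e-05, adjusted p = 0.00018) and rho of 0.916 (adjusted p = 0.00072). Id1 and Id3 had r of 0.844 (permutation p = 0.00012, adjusted p = 0.00144) and rho of 0.877 (adjusted p = 0.00198). The p of 1e-05 is the smallest that these permutations can give.

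Without the 2 controls farthest from the median, r was 0.889 for Smad6 with Smad9, 0.863 for Smad6 with Smad7 and 0.734 for Id1 with Id3. Over controls 1 to 11 it was 0.901, 0.884 and 0.762 in the same order, so these relations did not rest on controls 12, 13 and 14. Smad7 with Smad9 had r of 0.799 and rho of 0.886, and r of 0.672 without its 2 farthest controls. Id3 with Smad6 had r of 0.748, and 0.380 without controls 10 and 12, which were the highest and lowest controls for Id3. Leaving out extremes narrows the range, which can by itself lower r. Over deviations from group means on all 38 arrays r was 0.724, so whether that relation rested on those samples was not settled.

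**Figure D5:**
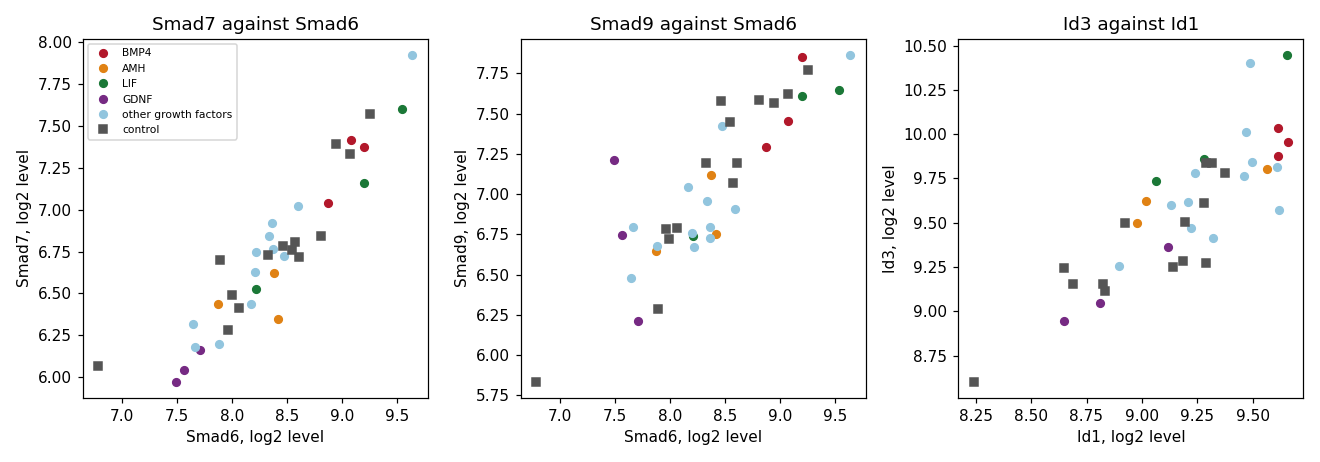
Log2 level of Smad7 against Smad6, Smad9 against Smad6 and Id3 against Id1 on 38 arrays; circles are growth factor samples, with BMP4, AMH, LIF and GDNF in their own colours, and squares are the 14 controls. In each panel the points lie along a rising band. Where Smad6 is on the x axis, the GDNF points lie at 7.71 or below and the BMP4 points at 8.87 or above.

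Over all 38 arrays the probe set most like Smad6 was Smad7 (r = 0.931), followed by Cdkn1c (r = 0.869), which encodes a cell cycle inhibitor, and Smad9 (r = 0.861). Cdkn1c (r = 0.853) and Vangl2 (r = 0.846) followed Smad6 among those most like Smad7. Those most like Smad9 were Smad6 (r = 0.861), Fgfr3 (r = 0.808) and Cdkn1c (r = 0.786). For Id1 they were Id3 (r = 0.842), Banp (r = 0.783) and Ufc1 (r = 0.782), and for Id3 they were Id1, Cybrd1 (r = 0.839) and Sgpl1 (r = 0.805). The 38 arrays share treatment groups and controls, so the values are descriptions and carry no p.

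The remaining members had other neighbours. Id2 was most like Ngfr (r = 0.711), Smad9 (r = 0.664) and Smad6 (r = 0.653), and Id4 was most like Flt3 (r = 0.818), Txnrd1 (r = 0.756) and Cited2 (r = 0.753). Atoh8 was most like Sat2 (r = 0.811), Lgals3 (r = 0.801) and Rps15 (r = 0.795). Bambi was most like Fbh1 (r = 0.903), Eif4a2 (r = 0.902) and Rbm39 (r = 0.901), the last of which encodes an RNA-binding protein of the splicing machinery.

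The level of Bambi was lowest in the sample numbered 1 in 6 of 8 growth factors, with 8.93 in BMP4 ovaries, 8.68 in LIF, 8.58 in FGF2, 8.77 in KITLG, 9.25 in AMH and 8.63 in PDGFab ovaries, and the first control, at 8.72, was the lowest of the 14. Atoh8 showed the reverse, with the sample numbered 1 the highest in 7 of 8 growth factors. Growth factors were cultured on several days with controls of the same day, but the labels give no day, so values within a day were not computed here.

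Several cell type markers moved with some of these genes across the 14 controls. The mean of the pregranulosa list (6 genes) correlated with Smad6 at r = 0.742, with Smad9 at r = 0.759 and with Bambi at r = 0.702, and the oocyte list (7 genes) with Bambi at r = 0.795. Atoh8 correlated with the macrophage list (8 genes) at r = 0.688, Id4 with the stromal list (8 genes) at r = -0.688 and with the surface epithelium list (5 genes) at r = 0.632, and Bambi with the surface epithelium list at r = -0.692. The endothelial list (9 of 12 measured) correlated with Bambi at r = 0.590, with Smad9 at r = 0.343, with Id1 at r = 0.314 and with Smad6 at r = 0.304. For the remaining members its r lay between -0.304 (Id4) and 0.201 (Smad7). Id2 correlated with the stromal list at r = -0.580. The red blood cell list (4 of 6 measured, 1 above the median probe set) correlated with Smad7 at r = -0.601 and with Id4 at r = -0.597. These are descriptions over the 14 controls with no test. In BMP4 ovaries the endothelial mean was 7.01 to 7.14, against 6.42 to 7.51 in controls, and the pregranulosa mean was 8.32 to 8.69, against 7.84 to 8.67. The surface epithelium mean was 7.84 to 8.23 in BMP4 ovaries, against 7.87 to 9.20 in controls, the stromal mean was 10.50 to 10.70, against 10.06 to 10.65, and the macrophage mean was 7.25 to 7.63, against 6.54 to 7.94. The part of cell composition in the differences above was not tested.

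Few other genes of the pathway met either rule with BMP4, AMH or LIF. None of the 5 SMAD effectors, 10 measured BMP and AMH receptors or 9 measured intracellular SMAD inhibitors met either rule with any of the 3 factors. Of 19 other BMP-SMAD targets, Tbx3, a transcription factor gene, met the criteria with BMP4 (0.46, adjusted p = 0.219 in limma), none did with AMH, and Junb did with LIF (0.69, adjusted p = 0.365); the median of the list was -0.0046 with BMP4, against 0.0022 over all probe sets. Of 14 ligands only Bmp2 met the criteria, with AMH (0.48, adjusted p = 0.982 in limma), and of 10 measured secreted BMP inhibitors only Fstl3 did, with LIF (0.26, adjusted p = 0.555). Of 7 measured TGF-beta and activin targets Tgfbi met them with LIF (0.62, adjusted p = 0.0931 in limma). The 3 E protein genes, whose products ID proteins bind, met neither rule.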

How the data were processed

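The deposited values are log2 expression levels that the authors made from the scans of Affymetrix Rat Gene ST arrays in Partek Genomic Suite, by RMA (probe summary with background correction and quantile normalization) with an adjustment for GC content. The 2 array sets were preprocessed apart and were never compared with each other. The number of arrays limits the precision. Gene symbols came from the platform annotation, where 15097 probe sets had 1 symbol, 323 had several and 11922 had none. No further normalization was applied. All 38 arrays were fitted together, and the 6 CTGF arrays on their own, by limma 3.58.1 (lmFit, then eBayes) under R 4.3.3, after a test on simulated data. P-values were adjusted by the Benjamini-Hochberg method over 27342 probe sets. Exact permutation tests used the difference in means, and correlations used 100000 permutations in SciPy 1.17.1. In the CTGF set, same-numbered samples deviated together (r = 0.842, 0.623 and 0.647), so the number pairs them; the labels give no other basis. Alternatives were the study's t-test, the arrays of a comparison alone, the replicate block, a second quantile normalization, no dim probe sets, the mean over a gene's probe sets, and samples left out (leaving out single controls was added after seeing the data). The named genes were all 9 members, pathway genes past either rule with BMP4, AMH or LIF (at most 4 per list, by size), and the 3 probe sets most like each member. Members and lists were chosen with earlier results of these data known. Samples are separate pools, but the labels do not say whether they come from separate litters, so p-values measure the spread between pools.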

Additional observations from a re-analysis of the deposited data

How the results depend on the processing

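No paired analysis of the 8 growth factors rests on the labels, since same-numbered samples did not deviate together in all pairs, so their replicate block is a check only. Sample 1 of LIF, FGF2 and KITLG did deviate together with control 1 (r = 0.694, 0.740 and 0.615). These are the arrays that stood apart in cell markers. Samples 2 and 3 of the same factors had r between -0.212 and 0.068 with their same-numbered controls. The cause was not tested. With the replicate block the genes at the study criteria numbered 5 with BMP4, 0 with FGF2, 1 with GDNF, 0 with PDGFab, 2 with CTGF, 5 for BMP4 against AMH and 2 for LIF against AMH, 1 gene was called with GDNF, the FGF7 median was 0.056 against -0.091 without the block, and Bambi turned to 0.16 with BMP4, 0.25 with AMH and 0.10 with LIF. Without controls 12, 13 and 14 the criteria were met by 1 gene with LIF and 0 with FGF2, and 3 genes were called with GDNF. By the Methods' t-test 0 genes met them with FGF2 and 0 with PDGFab. In fits on the arrays of a comparison alone 0 did with FGF2, 6 for BMP4 against AMH and 1 for LIF against AMH. The share of all probe sets at the criteria is not given for these fits, so their counts have no background beside them. The cause of these moves was not tested.

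With 1 sample left out at a time, the number of genes at the criteria was 3 to 5 with BMP4, 0 to 6 with LIF, 0 to 2 with FGF2, FGF7 and PDGFab, 1 to 3 with GDNF, 0 to 1 with KITLG and CTGF, 0 to 2 for BMP4 against AMH, 0 to 1 for LIF against BMP4 and 0 to 4 for LIF against AMH. These ranges also stand without the share of all probe sets at the criteria. GDNF calls were 0 to 2. The median was 0.43 to 0.59 with BMP4, -0.22 to 0.020 with AMH, 0.071 to 0.45 with LIF, -0.079 to 0.10 with FGF2, -0.37 to -0.13 with GDNF, 0.040 to 0.20 with CTGF and 0.34 to 0.45 for BMP4 against AMH. With BMP4 Id2 was -0.027 to 0.13 and Bambi -0.31 to 0.034. With AMH Id1 was -0.017 to 0.27, Id4 -0.26 to 0.028, Smad6 -0.28 to 0.020 and Bambi -0.20 to 0.014. With LIF Bambi was -0.44 to 0.071. Calls over all probe sets moved more than 1.5-fold in 32 of the other settings: with BMP4 they were 75, against 7 by the Methods' t-test, 0 on its own arrays and 21 with the block, and with GDNF 517, against 16, 5 and 1726, 162 after a second quantile normalization and 116 without the dimmest 30% of probe sets, and 3151 without controls 12, 13 and 14. In the same order of the t-test, own arrays and block they were 19, 31 and 40 with LIF (73 in the fit as reported), 13, 35 and 125 with FGF2 (257), 0, 1 and 262 with FGF7 (22, and 40 after a second quantile normalization) and 0 each with KITLG (12, and 6 without controls 12, 13 and 14). With PDGFab (64) they were 0 by the t-test, 0 on its own arrays and 101 without the dimmest probe sets, and with AMH (0) they were 10 on its own arrays and 2 with the block. For LIF against BMP4 (18) they were 1 on the arrays of the pair and 29 with the block, and for LIF against AMH (20) 0 on the arrays of the pair and 11 without the dimmest probe sets. No gene of the 9 was called in 230 of 233 alternatives, and the other 3 were those with GDNF above.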
